A study of Homo sapiens with 12 samples.

Results

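Tumour cells can hold off immune attack with a set of surface ligands and enzymes, and 10 genes of that set were followed here in cultured lines of squamous cancer of the head and neck (HNSCC): CD274, PDCD1LG2, CD276, VTCN1, NT5E, CD47, LGALS9, IDO1, TNFRSF14 and PVR. They were chosen by name for this role and not by a rule on their values, though with earlier results of these data known. All 10 were among the 33514 gene symbols of the count tables and among the 17897 genes that passed the low-count filter. Single-cell RNA-seq (10x Genomics 3′ libraries, in which each captured transcript is counted as 1 unique molecular identifier, UMI) was available for SCC1, SCC6 and SCC25. Each line had received a daily dose of 100 nM cetuximab, a therapeutic antibody against the growth factor receptor EGFR, or PBS (untreated), and was collected after 5 days, with 2 replicates in each of the 6 groups and 12 samples in all. The labels give nothing that says whether the replicates were separate cultures, so p-values measure only the spread between these samples, which may be technical.

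Immune checkpoints are receptor and ligand pairs that restrain lymphocytes. PD-L1 (CD274) and PD-L2 (PDCD1LG2) bind PD-1 on T cells, CD276 (B7-H3) and VTCN1 (B7-H4) are B7 family members with inhibitory activity, TNFRSF14 (HVEM) binds the inhibitory receptor BTLA, PVR (CD155) binds TIGIT, and galectin-9 (LGALS9) is a ligand of TIM-3. CD47 gives macrophages a signal against phagocytosis through SIRPα, while NT5E (CD73) makes adenosine and IDO1 breaks down tryptophan, both of which dampen T cells. Interferons are well known inducers of CD274, PDCD1LG2, LGALS9 and IDO1.

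The tables held 23914 cells, 961 to 2854 per sample, with 57057402 to 112170073 UMIs per sample and a median of 24078.5 to 54864 UMIs per cell. SCC6 cetuximab replicate 1 was the shallowest library per cell, at 24078.5 against 50156 in replicate 2 of its group. Levels are given in CPM, the UMIs of a gene summed over all cells of a sample and scaled to the size of the library. A sum of this kind cannot tell fewer positive cells from less RNA per cell. Keratin and other squamous carcinoma markers were present as a set in every sample, with 1201.6 to 14447.9 CPM summed over 8 genes. Not each of them was high throughout. In their lowest samples KRT14 was at 0.424 CPM, KRT5 at 1.16 CPM and KRT6A at 2.86 CPM, whereas KRT17 ranged from 492 to 6995 CPM. Immune cells were not seen in the markers: over all 12 samples PTPRC, which encodes the leukocyte antigen CD45, had 15 UMIs and CD3E had 6, and the B cell gene MS4A1 was at 0. The sum of the 11 immune markers lay between 0.0515 and 13.9 CPM and came largely from CD14. Samples of 1 group shared 3 to 10 cell barcodes, and other pairs of samples shared 1 to 13.

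The positions of 9 members, looked up in RefSeq on GRCh38.p14, fall on 7 chromosomes. CD274 (chr9:5450542-5470554) and PDCD1LG2 (chr9:5510531-5571282) are neighbours 40.0 kb apart. VTCN1 (chr1:117143587-117210927) and TNFRSF14 (chr1:2554234-2563829) are at opposite parts of chromosome 1. Promoter sequences, each 300 bases from 250 before to 50 after the transcript start, were matched for 8 of the 10 members. The 2 that held an interferon-type motif are shown because the values below are read against interferon genes. Capitals mark the letters GAAANNGAAA on either strand (ISRE type) in both, and TTCNNNGAA (GAS type) in CD274 only. Where matches overlapped, their capitals run together.
CD274 (chr9:5450292-5450591, plus strand): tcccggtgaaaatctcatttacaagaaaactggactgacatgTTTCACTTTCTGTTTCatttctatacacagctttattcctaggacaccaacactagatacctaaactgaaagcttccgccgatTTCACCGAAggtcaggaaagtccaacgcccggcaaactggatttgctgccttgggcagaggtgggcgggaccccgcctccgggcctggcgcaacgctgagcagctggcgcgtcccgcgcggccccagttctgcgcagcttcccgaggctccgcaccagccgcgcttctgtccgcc
LGALS9 (chr17:27630938-27631237, plus strand): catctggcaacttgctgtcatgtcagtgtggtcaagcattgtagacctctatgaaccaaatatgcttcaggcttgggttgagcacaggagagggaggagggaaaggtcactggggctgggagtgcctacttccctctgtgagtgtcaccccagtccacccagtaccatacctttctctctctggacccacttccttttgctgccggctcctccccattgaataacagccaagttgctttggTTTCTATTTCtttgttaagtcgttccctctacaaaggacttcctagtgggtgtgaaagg
The ISRE-type letters began 208 and 202 bases before the start of CD274 and 9 bases before that of LGALS9. Of 35116 RefSeq promoters of this length, 3.57% held them. The GAS-type letters stood 125 bases before the start of CD274, and 7.66% of promoters held them. Another pattern, TGANTCA (AP-1 type), was in the VTCN1 window and in 7.71% of all promoters. These are matches of letters, not measured binding sites.

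**Figure D1:**
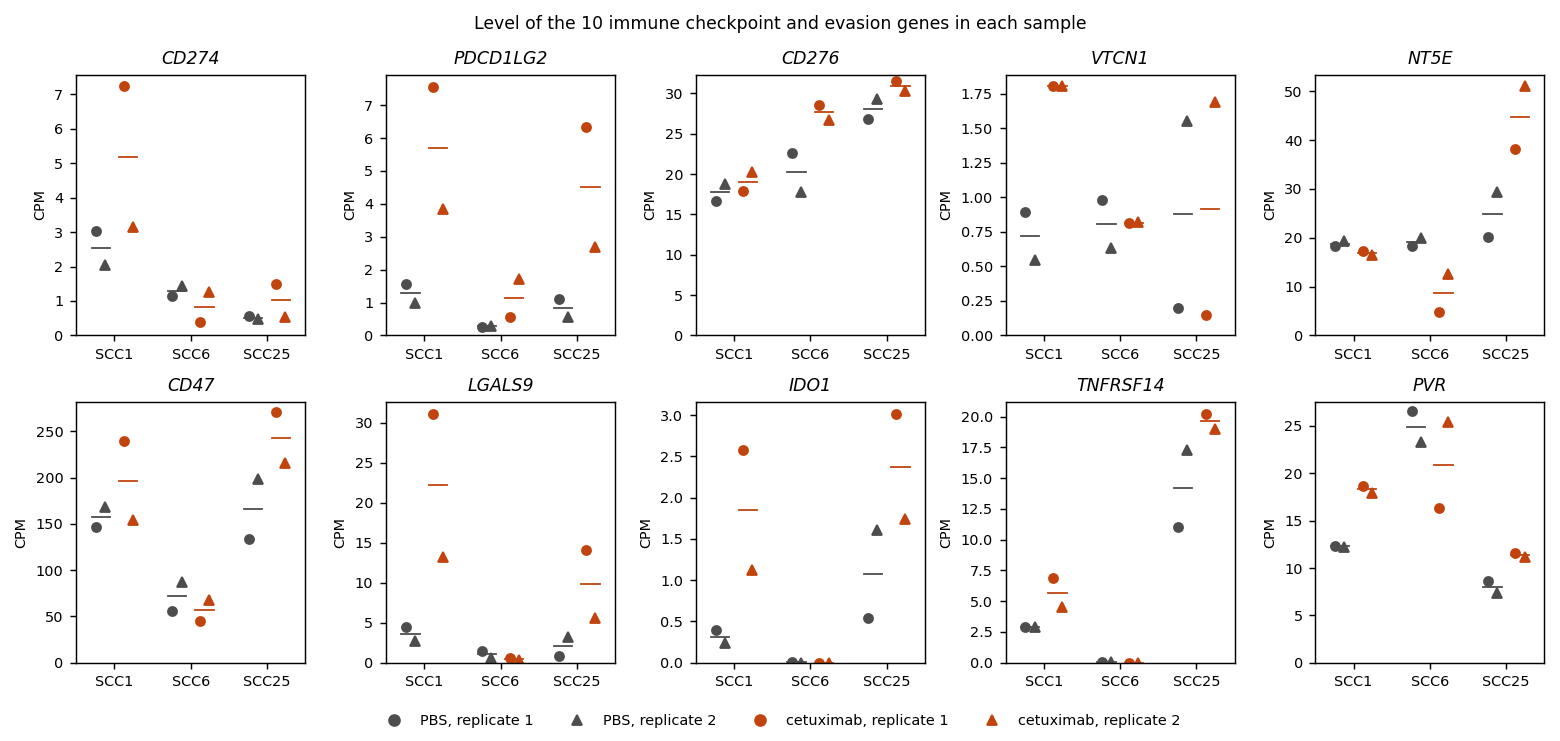
CPM of each of the 10 members (one panel each, y axis from 0) in the 12 samples, by line on the x axis; grey marks are PBS and orange marks cetuximab, circles replicate 1, triangles replicate 2, and bars the mean of 2. PDCD1LG2 is higher in both cetuximab samples than in both PBS samples in each line, whereas NT5E is higher with cetuximab in SCC25 and lower in SCC6 and SCC1.

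Which members differed between the lines without drug was asked first. Untreated lines differed in many genes: 40.2% of all tested genes were called at an adjusted p under 0.05 between SCC6 and SCC1, 40.8% between SCC25 and SCC1, and 40.9% between SCC25 and SCC6 (edgeR quasi-likelihood test, Benjamini-Hochberg over 17897 genes). The members called numbered 5, 3 and 4 of 10, a share near or not far from those.

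TNFRSF14, which encodes HVEM, was called in all 3 comparisons. It was at 2.88 CPM in both SCC1 PBS samples, at 11.1 and 17.3 CPM in SCC25, and at 0.0716 and 0.0326 CPM in SCC6, where the samples held 6 and 3 UMIs. The 3 lines did not overlap. By UMIs over total UMIs, untreated SCC25 exceeded SCC6 312-fold (95% exact interval 164 to 682) and SCC1 exceeded SCC6 70.3-fold (36.7 to 155), intervals that cover counting error only. SCC25 also exceeded SCC1 (log2 fold change 2.3 ± 0.33 standard error, edgeR adjusted p = 0.000404). The gene called TNFRSF14-AS1 on the opposite strand had 410 UMIs over all samples against 7668 for TNFRSF14. How reads were divided between the 2 genes was not tested.

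IDO1, the tryptophan-degrading enzyme, was nearly absent from SCC6 as well. Untreated SCC6 held 1 UMI over both samples, against 51 in SCC1 and 210 in SCC25. The ratio of SCC1 to SCC6 was 67.1 (95% exact interval 11.5 to 2701) and that of SCC25 to SCC6 was 221 (39.2 to 8767). Both differences were called (edgeR adjusted p = 0.00502 and 0.00072), while SCC25 against SCC1 lay at the threshold (log2 fold change 1.79 ± 0.65, adjusted p = 0.0522). That difference passed with DESeq2 (adjusted p = 0.0224), and in edgeR with DESeq2 size factors (adjusted p = 0.0497), without the low-count filter (adjusted p = 0.00798) and with a shared replicate block (adjusted p = 0.0293).

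PVR, the TIGIT ligand, was highest in SCC6. The PBS samples gave 26.6 and 23.3 CPM in SCC6, 12.3 and 12.3 CPM in SCC1, and 8.66 and 7.35 CPM in SCC25. The difference was called for SCC6 against SCC1 (log2 fold change 1.02 ± 0.23, edgeR adjusted p = 0.00534) and for SCC25 against SCC6 (-1.64 ± 0.23, adjusted p = 0.000401). SCC1 and SCC25 did not overlap, but their difference lay at the threshold (-0.62 ± 0.23, edgeR adjusted p = 0.0521). It passed with DESeq2 (adjusted p = 0.0485) and with a shared replicate block in edgeR (adjusted p = 0.0238).

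CD47, the antiphagocytic signal, went the other way. SCC6 had 56.1 and 87.7 CPM, below the 146 and 168 CPM of SCC1 and the 134 and 199 CPM of SCC25. SCC6 was lower than SCC1 (log2 fold change -1.13 ± 0.32, edgeR adjusted p = 0.0189) and SCC25 was higher than SCC6 (1.21 ± 0.33, adjusted p = 0.0135). The first call was lost without SCC1 PBS replicate 2 or SCC6 PBS replicate 1, and the second without SCC6 PBS replicate 1 or SCC25 PBS replicate 2. SCC1 and SCC25 overlapped.

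The PD-1 ligands were low in every line. CD274 stood at 3.03 and 2.05 CPM in untreated SCC1, 1.16 and 1.44 CPM in SCC6, and 0.561 and 0.466 CPM in SCC25. These levels did not overlap between lines, and the call was made for SCC25 against SCC1 (log2 fold change -2.31 ± 0.64, edgeR adjusted p = 0.0155), though not without SCC1 PBS replicate 1 or either SCC25 PBS replicate. PDCD1LG2 was at 1.58 and 0.985 CPM in SCC1, 1.12 and 0.573 CPM in SCC25 and 0.251 and 0.294 CPM in SCC6. SCC6 was lower than SCC1 (-2.22 ± 0.66, edgeR adjusted p = 0.0213), a call that was lost without SCC1 PBS replicate 1 or either SCC6 PBS replicate. SCC1 and SCC25 overlapped for this gene.

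CD276 varied least in fold terms between lines among the members called. Its untreated levels were 26.9 and 29.3 CPM in SCC25 and 16.7 and 18.8 CPM in SCC1 (log2 fold change 0.66 ± 0.19, edgeR adjusted p = 0.0188, lost without either SCC1 PBS replicate or SCC25 PBS replicate 2). The call was also lost without the low-count filter (edgeR adjusted p = 0.0563). The SCC6 values, 22.6 and 17.8 CPM, overlapped SCC1. In the reported fit no difference between untreated lines was called for NT5E, LGALS9 or VTCN1. For LGALS9, SCC6 was lower than SCC1 without a call (log2 fold change -1.78 ± 0.73, edgeR adjusted p = 0.0774). That difference passed with DESeq2 (adjusted p = 0.0301). It also passed in edgeR without the low-count filter (adjusted p = 0.00626) and with a shared replicate block (adjusted p = 0.0342). For NT5E the untreated means were 18.8 ± 0.71 (SD, n = 2) CPM in SCC1, 19.2 ± 1.16 in SCC6 and 24.8 ± 6.4 in SCC25. Both SCC25 samples lay above those of the other lines, by little for the lower one.

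Next, cetuximab was compared with PBS within each line. Within SCC1 edgeR called none of the members and 0.0168% of all genes, within SCC6 none of the members and 3.81% of all genes, and within SCC25 no member and 0.0% of all genes. At an unadjusted p under 0.05, the members numbered 5 in SCC1, where 8.77% of all genes did so, 4 in SCC6 (19.9%) and 4 in SCC25 (5.82%). Samples with the same replicate number deviated together in all lines, so a fit with replicate number as a block was also made. With the block, 2 members and 4.45% of all genes were called in SCC1, 3 members and 20.1% in SCC6, and 1 member and 0.978% in SCC25. DESeq2 on the same sums called 3, 2 and 1 members, against 1.53%, 9.34% and 0.564% of all genes for SCC1, SCC6 and SCC25.

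By levels alone, both cetuximab samples exceeded both PBS samples for 7 of 10 members in SCC1, where 22.3% of all genes did so, and for 8 of 10 in SCC25, where 14.4% did. The count was 2 of 10 in SCC6, where the share of all genes was 25.5%. Both cetuximab samples were lower for 1 member in SCC1 (20.4% of all genes), 2 in SCC6 (21.4%) and none in SCC25 (15.3%). The 2 lower in SCC6 were NT5E and TNFRSF14, the latter at 9 UMIs with PBS and 1 with cetuximab. The median log2 fold change of the members was 1.00 in SCC1, 0.70 in SCC25 and -0.49 in SCC6. The median of all tested genes was 0.00, -0.01 and 0.00. The SCC6 median of the members includes TNFRSF14 and IDO1 (1 UMI with PBS and 0 with cetuximab), whose fitted changes are unsure at such counts. Only PDCD1LG2 exceeded PBS without overlap in all 3 lines, a pattern that 3.86% of all genes showed.

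**Figure D2:**
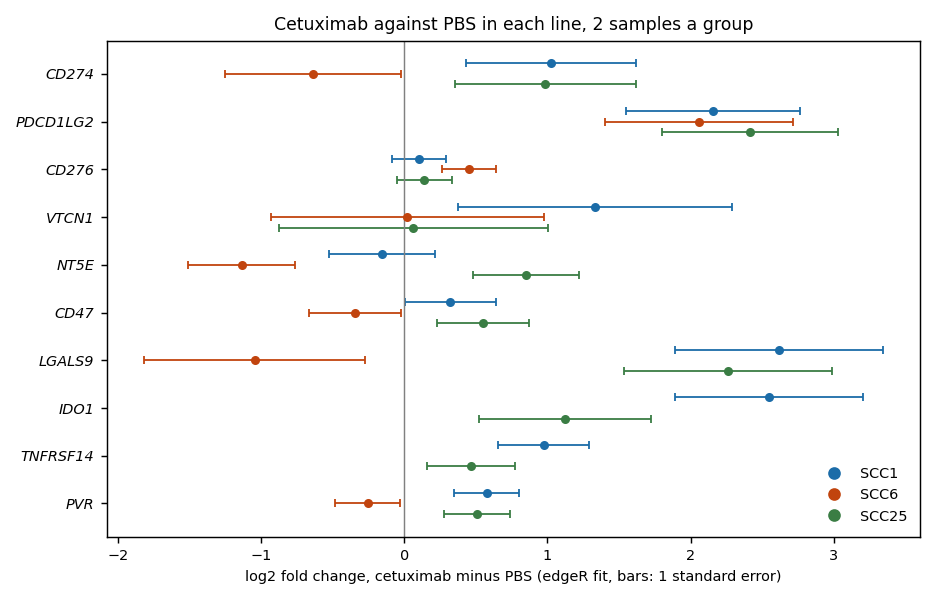
Log2 fold change of cetuximab over PBS (x axis) for each member (y axis) in SCC1 (blue), SCC6 (orange) and SCC25 (green), from the edgeR fit, with bars of 1 standard error; IDO1 and TNFRSF14 in SCC6 are left out for their few UMIs. PDCD1LG2 lies near 2 in each line, and LGALS9 lies above 2 in SCC1 and SCC25 and below 0 in SCC6.

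PDCD1LG2, which encodes PD-L2, was the member that rose with cetuximab across the lines. In SCC1 it went from 1.58 and 0.985 CPM with PBS to 7.57 and 3.86 CPM with cetuximab. In SCC25 the values were 1.12 and 0.573 CPM against 6.34 and 2.69 CPM, and in SCC6 0.251 and 0.294 CPM against 0.567 and 1.70 CPM. Every cetuximab sample was above every PBS sample of its line. Fitted over the 3 lines together, the log2 fold change was 2.22 ± 0.34 (edgeR adjusted p = 0.00903), the only member of 10 among the 3.67% of genes called, and the call stood when any one of the 12 samples was left out. With the replicate block it was 2.15 ± 0.19 (edgeR adjusted p = 0.00267), again 1 of 10 members, with 11.6% of all genes called.

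Line by line, PDCD1LG2 did not pass in the unblocked edgeR fit and passed in each line with the block. The unblocked log2 fold changes were 2.16 ± 0.61 in SCC1, 2.06 ± 0.66 in SCC6 and 2.42 ± 0.62 in SCC25 (edgeR adjusted p = 0.283, 0.114 and 0.467). The blocked ones were 2.12 ± 0.28, 1.94 ± 0.34 and 2.37 ± 0.29 (edgeR adjusted p = 0.0108, 0.00782 and 0.0161). DESeq2 and edgeR without the low-count filter called it in all 3 lines as well. With a block of 1 replicate term shared by the lines, edgeR kept the call in SCC6 (adjusted p = 0.0458) and lost it in SCC1 (2.13, adjusted p = 0.0889) and SCC25 (2.39, adjusted p = 0.143). Without cetuximab replicate 1 the unblocked values were 1.59 in SCC1 and 1.68 in SCC25, and without cetuximab replicate 2 the SCC6 value was 1.04. The line-by-treatment interaction was not called (edgeR adjusted p = 1.00), which does not show that the lines responded alike.

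The share of PDCD1LG2-positive cells moved with the level. To compare shares at one depth, each cell was thinned to 15000 UMIs, which left out 851 shallower cells and kept 23063. Positive cells were 2.96% (95% exact interval 2.08 to 4.08) and 1.52% (0.989 to 2.24) in SCC1 PBS, and 10.1% (8.27 to 12.2) and 4.53% (3.48 to 5.78) with cetuximab. In SCC25 they were 1.42% (0.965 to 2.01) and 0.639% (0.366 to 1.04) with PBS and 8.44% (7.23 to 9.77) and 3.56% (2.79 to 4.47) with cetuximab. In SCC6 they were 0.226% (0.0831 to 0.492) and 0.164% (0.0448 to 0.42), against 0.887% (0.563 to 1.33) and 1.59% (1.04 to 2.32). In each line the cetuximab intervals lay above the PBS samples' point values, and positive cells remained a minority. Without thinning the group means were 6.38%, 0.907% and 2.85% with PBS and 23.1%, 4.76% and 15.6% with cetuximab for SCC1, SCC6 and SCC25. As a background, 4 genes of blood or liver (PTPRC, CD3E, ALB and HBB) reached at most 0.0914% of thinned cells in any sample and 0.345% without thinning. The intervals cover counting error only.

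**Figure D3:**
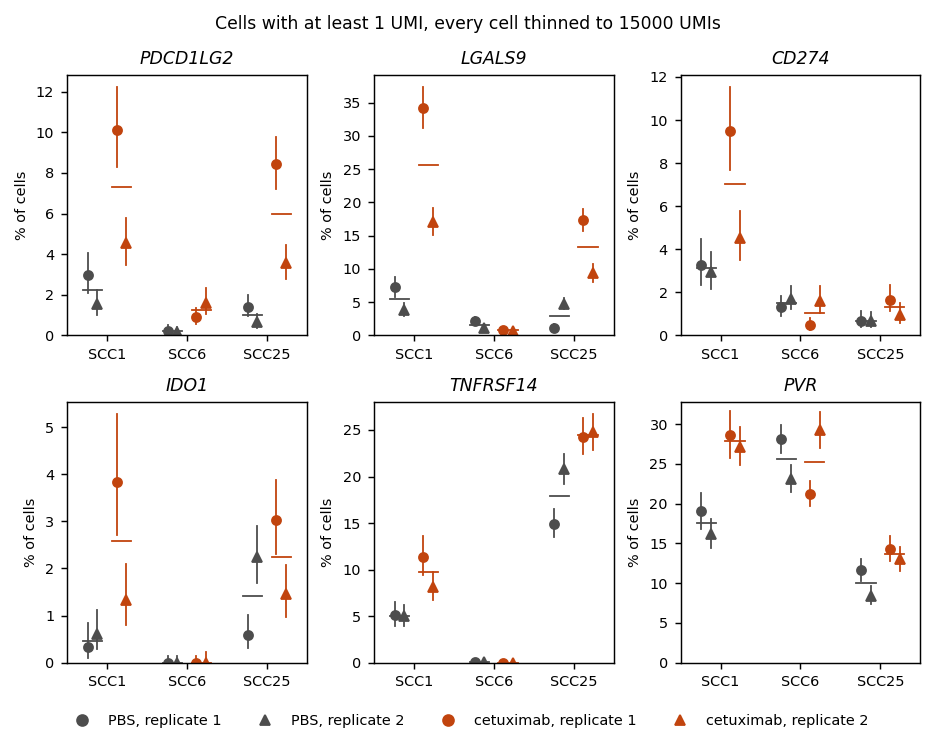
Percentage of cells with at least 1 UMI (y axis from 0) of 6 members after every cell was thinned to 15000 UMIs, by line (x axis), with PBS in grey, cetuximab in orange, exact 95% binomial intervals as vertical lines and the mean of 2 samples as a bar. PDCD1LG2 and LGALS9 shares are higher with cetuximab in SCC1 and SCC25, and TNFRSF14 and IDO1 are at or near 0 in SCC6.

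CD274, the gene of PD-L1 and neighbour of PDCD1LG2, did not pass in any line. In SCC1 the PBS samples gave 3.03 and 2.05 CPM and the cetuximab samples 7.23 and 3.14 CPM, without overlap but with replicate 2 just above PBS replicate 1. In SCC25 the values were 0.561 and 0.466 CPM against 1.51 and 0.533 CPM, and in SCC6 1.16 and 1.44 CPM against 0.399 and 1.26 CPM. The groups overlapped in both. The log2 fold changes were 1.03 ± 0.59, 0.98 ± 0.63 and -0.64 ± 0.61 for SCC1, SCC25 and SCC6 (edgeR adjusted p = 0.714, 0.961 and 0.619). Without cetuximab replicate 1 they were 0.30, 0.07 and -0.04. Positive cells after thinning were 3.11% ± 0.258 (SD, n = 2) with PBS and 7.01% ± 3.51 with cetuximab in SCC1, and 11.8% and 22.2% without thinning. Cells positive for CD274 and PDCD1LG2 together numbered 16 of 938 in SCC1 cetuximab replicate 1, 1.78 times the 9.01 that independence of the 2 genes would give. In the other samples under 3 such cells were expected, too few to read.

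LGALS9, encoding galectin-9, was higher with cetuximab in SCC1 and SCC25 but not in SCC6. In SCC1 it was at 4.53 and 2.70 CPM with PBS and 31.1 and 13.2 CPM with cetuximab. In SCC25 it was at 0.822 and 3.26 CPM against 14.1 and 5.61 CPM, and in SCC6 at 1.52 and 0.588 CPM against 0.644 and 0.376 CPM. Groups did not overlap in SCC1 and SCC25 and overlapped in SCC6. The log2 fold changes were 2.62 ± 0.73, 2.26 ± 0.72 and -1.05 ± 0.77 (edgeR adjusted p = 0.282, 0.64 and 0.50), and with the block the SCC1 value was 2.54 ± 0.59 (adjusted p = 0.0506). In both lines replicate 1 was the larger: without cetuximab replicate 1 the values were 1.87 in SCC1 and 1.47 in SCC25, and within SCC25 the cetuximab level was 17.1 times that of PBS in replicate 1 and 1.72 times in replicate 2. DESeq2 called LGALS9 in SCC1 and in the interaction of line and treatment, where it called 1.54% of all genes and edgeR did not call LGALS9 (adjusted p = 0.504, with 0.0% of all genes and no member called, 1318 genes and 4 members being under an unadjusted p of 0.05).

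Positive cells for LGALS9 after thinning were 5.54% ± 2.41 (SD, n = 2) with PBS and 25.6% ± 12.1 with cetuximab in SCC1, and 2.95% ± 2.55 against 13.3% ± 5.63 in SCC25. In SCC6 they were 1.59% ± 0.738 and 0.749% ± 0.196. Without thinning the means were 15.2% and 53.6% in SCC1, 6.71% and 26.5% in SCC25 and 2.76% and 1.72% in SCC6. The near-identical genes LGALS9B and LGALS9C had 1467 and 547 UMIs over all samples against 6219 for LGALS9, and how reads common to them were assigned makes the LGALS9 level uncertain.

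IDO1 was higher with cetuximab in SCC1 and SCC25, from a very low base. SCC1 had 0.391 and 0.241 CPM with PBS and 2.57 and 1.12 CPM with cetuximab, while SCC25 had 0.548 and 1.61 CPM against 3.01 and 1.74 CPM. The groups did not overlap in either line, though in SCC25 PBS replicate 2 and cetuximab replicate 2 were close. Fitted log2 fold changes were 2.55 ± 0.66 and 1.13 ± 0.60 (edgeR adjusted p = 0.261 and 0.921), and DESeq2 called the first. Without cetuximab replicate 1 they were 1.82 and 0.70. Both SCC6 cetuximab samples held no IDO1 UMI, so no fold is given there. No thinned cell was positive, 0 of 2592 and 0 of 1639, which by a floor of 3 counts allows shares of cells with an IDO1 UMI of up to 0.116% and 0.183%. In SCC1 the thinned shares were 0.469% ± 0.198 (SD, n = 2) with PBS and 2.59% ± 1.77 with cetuximab, with 1.56% and 5.92% unthinned. A sample with 3 UMIs would stand at 0.0292 to 0.046 CPM. IDO1 UMIs sat in few cells: in samples with at least 30 of them, the 1% of cells with the most IDO1 carried 46.4% to 79.5% of all IDO1 UMIs, and 1 cell of SCC25 cetuximab replicate 2 held 47. Such a share is higher by itself when UMIs are few, and the 79.5% came from 44 UMIs in SCC25 PBS replicate 1.

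These 4 genes were read beside the interferon response of the same samples, measured over 16 genes such as IFIT2, RSAD2 and CXCL10 that do not include the members. The summed level was 4784.2 and 2714.7 CPM in SCC1 PBS and 12329.9 and 7889 CPM in SCC1 cetuximab, 1116.7 and 1370.1 against 5244.1 and 2079.4 CPM in SCC25, and 88.7 and 129 against 141 and 219 CPM in SCC6. Among the cetuximab samples of SCC1 and SCC25, replicate 1 had the higher sum and also the higher PDCD1LG2, CD274, LGALS9 and IDO1. This order did not hold throughout: in SCC25 PBS replicate 2 had the higher sum with the lower PDCD1LG2 and CD274, and in SCC6 cetuximab replicate 2 had the higher sum with the lower LGALS9. Across the lines 5 of the 16 interferon genes rose and none fell (edgeR, with 3.67% of all genes called). With the block 10 rose and none fell (11.6% of all genes called). Line by line the block called 10 higher in SCC1, 2 in SCC6 and 3 in SCC25. It called 4.45%, 20.1% and 0.978% of all genes there, and the SCC6 count did not stand out from that share. What part this response had in the members' values was not tested.

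TNFRSF14 was at 2.88 and 2.88 CPM in SCC1 PBS and 6.85 and 4.49 CPM with cetuximab, without overlap. SCC25 gave 11.1 and 17.3 CPM against 20.2 and 19.0 CPM, also without overlap. Its fitted log2 fold changes were 0.97 ± 0.32 and 0.47 ± 0.31 (edgeR adjusted p = 0.383 and 0.965). In SCC6 it had 9 UMIs over both PBS samples and 1 over both cetuximab samples, a ratio of 7.35 with a 95% exact interval of 1.02 to 322. Positive cells after thinning were 5.05% ± 0.0727 (SD, n = 2) and 9.79% ± 2.29 in SCC1, and 17.9% ± 4.12 and 24.5% ± 0.329 in SCC25. The unthinned means were 14.2% and 27.8%, and 37.9% and 54.1%. In SCC6 PBS 0.118% ± 0.00709 of thinned cells were positive, close to the background genes.

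PVR showed tight replicates in SCC1 and SCC25. It was at 12.3 and 12.3 CPM in SCC1 PBS and 18.7 and 18 CPM with cetuximab, and at 8.66 and 7.35 CPM against 11.6 and 11.2 CPM in SCC25. The groups were separate in both, with mean levels 1.49 and 1.42 times those with PBS. In SCC6 the values overlapped, at 26.6 and 23.3 CPM against 16.3 and 25.4 CPM. On the log2 scale the changes were 0.58 ± 0.23, 0.51 ± 0.23 and -0.26 ± 0.23 in SCC1, SCC25 and SCC6 (edgeR adjusted p = 0.498, 0.856 and 0.578), so none passed over all genes. Positive cells after thinning were 17.6% ± 2.02 (SD, n = 2) and 27.9% ± 0.99 in SCC1, with 45.5% and 60.9% unthinned.

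NT5E, the adenosine-producing CD73, had different signs in the lines. In SCC6 it was at 18.4 and 20.02 CPM with PBS and 4.88 and 12.6 CPM with cetuximab. In SCC25 it was at 20.2 and 29.3 CPM against 38.2 and 51.1 CPM, and in SCC1 at 18.3 and 19.3 CPM against 17.2 and 16.6 CPM. No line's groups overlapped. It fell in SCC6 with the block (log2 fold change -1.28 ± 0.25, edgeR adjusted p = 0.0123) but did not pass without it (-1.14 ± 0.37, adjusted p = 0.124). The unblocked value was -0.61 without SCC6 cetuximab replicate 1 and -1.98 without replicate 2, fits in which 1 cetuximab sample stood alone. In SCC25 the log2 fold change was 0.85 ± 0.37 (0.86 ± 0.24 with the block, edgeR adjusted p = 0.843 and 0.155) and in SCC1 -0.16 ± 0.37. Tested itself, the difference between lines gave an edgeR adjusted p of 0.501, and 0.0586 with the block.

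Shares of NT5E-positive thinned cells were 20.7% ± 0.244 (SD, n = 2) with PBS and 10.8% ± 5.56 with cetuximab in SCC6, and 28.3% ± 4.06 against 43.3% ± 4.86 in SCC25. SCC1 gave 19.7% ± 1.17 and 20.5% ± 0.857. The unthinned means were 40.3% and 25.4%, 50.6% and 73.6%, and 46.2% and 46.3%. SCC6 cetuximab replicate 1, with the lowest NT5E, was also the shallowest library per cell, and at the common depth its share was 6.91% (95% exact interval 5.96 to 7.95) against 14.8% (13.1 to 16.6) in replicate 2.

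CD276 differed by little in each line. In SCC6 it was at 22.6 and 17.8 CPM with PBS and 28.6 and 26.7 CPM with cetuximab, and it rose there with the block (log2 fold change 0.46 ± 0.13, edgeR adjusted p = 0.0387) but not without it (0.45 ± 0.19, adjusted p = 0.221) or with the block shared by the lines (0.45, edgeR adjusted p = 0.0784). SCC25 gave 26.9 and 29.3 against 31.6 and 30.3 CPM, and SCC1 16.7 and 18.8 against 17.9 and 20.2 CPM, where the groups overlapped. The log2 fold changes of 0.14 ± 0.19 and 0.10 ± 0.19 were smaller than their errors. Positive thinned cells in SCC6 were 23.1% ± 1.84 (SD, n = 2) and 34.5% ± 0.908, with unthinned means of 46.3% and 61.6%.

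VTCN1, the B7-H4 gene, was under 2 CPM in every sample. In SCC1 it was at 0.894 and 0.545 CPM with PBS and 1.81 and 1.80 CPM with cetuximab, and it rose with the block (log2 fold change 1.37 ± 0.30, edgeR adjusted p = 0.0449) but not without it (1.33 ± 0.96, adjusted p = 0.809) or with the block shared by the lines (1.29, edgeR adjusted p = 0.539). In SCC6 the values were 0.978 and 0.631 against 0.811 and 0.819 CPM. In SCC25 both replicates 1 were low, at 0.199 CPM with PBS and 0.151 CPM with cetuximab, and both replicates 2 were high, at 1.55 and 1.69 CPM, so the replicate number and not the treatment separated them. Positive thinned cells in SCC1 were 1.18% ± 0.149 (SD, n = 2) and 2.85% ± 0.268, with unthinned means of 2.58% and 6.95%. There the 1% of cells with the most VTCN1 carried 38.6% to 62.5% of its UMIs, against 14.5% to 19.9% for CD274 in the same samples. VTCN1 had 52 to 158 UMIs in these samples and CD274 had 196 to 472. Such a share rises by itself when UMIs are fewer, so the contrast does not show that VTCN1 was the more concentrated gene.

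CD47 overlapped between treatments in 2 lines. The values were 146 and 168 CPM with PBS and 239 and 154 CPM with cetuximab in SCC1, 56.1 and 87.7 against 45.4 and 68.0 CPM in SCC6, and 134 and 199 against 271 and 216 CPM in SCC25, the line without overlap. The log2 fold changes were 0.32 ± 0.32, -0.34 ± 0.32 and 0.55 ± 0.32 (edgeR adjusted p = 0.909, 0.605 and 0.93). Without SCC1 cetuximab replicate 1 the SCC1 value was -0.04. CD47 was detected in most cells, with 83.6% ± 3.8 (SD, n = 2) of thinned SCC1 PBS cells positive, 55.9% ± 13.4 in SCC6 and 84.3% ± 7.52 in SCC25, and 96.6%, 80.1% and 94.9% unthinned.

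Whether the members followed other programmes from cell to cell was described inside each sample. Thinned cells were ranked by the summed UMIs of 3 lists of 16 genes each (interferon response, cell cycle, and EGFR and MAPK output), none of which holds a member, and the 25% of cells with the highest score were set against the 25% with the lowest. Cells are not replicates, so the description is how many of the 12 samples pointed one way, with the share of all genes of at least 1 CPM that did so in all 12.

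By interferon score, LGALS9 was higher in the top 25% in 12 of 12 samples, as were 4.35% of all genes, with a mean level of 13.5 against 2.68 CPM, or 5.02 times. IDO1 was higher in the 8 samples of SCC1 and SCC25 and had no UMI in either group of cells in the 4 of SCC6, with means of 3.19 and 0.261 CPM. VTCN1 was higher in 11 and equal in 1, with 1.74 against 0.627 CPM. CD47 was higher in 11 and lower in 1, with 169 against 126 CPM. TNFRSF14 was higher in 10 and lower in none, with 9.36 against 5.88 CPM. It had no UMI in either group of cells in the SCC6 cetuximab samples, and SCC6 PBS rested on 3 and 2 UMIs against 0. CD274 was split, higher in 6 and lower in 6: all 4 SCC25 samples and both SCC1 cetuximab samples were higher, while all 4 SCC6 samples and both SCC1 PBS samples were lower. These CD274 directions rest on few UMIs, so they do not show that the lines differ. The top and bottom 25% held 9 and 10 CD274 UMIs in SCC1 PBS replicate 1. They held 1 and 5 in SCC6 cetuximab replicate 1, and 9 and 2 in SCC25 PBS replicate 1. PDCD1LG2 was higher in 8 and lower in 3, and in SCC25 cetuximab replicate 1 it was at 9.03 against 1.94 CPM. Where PDCD1LG2 was lower its UMIs were also few, such as 3 against 4 in SCC25 PBS replicate 2. In SCC6 the score was thin, with a median of 2 to 6 UMIs per cell in the top 25% and 0 in the bottom.

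By cell cycle score, VTCN1 was lower in the top 25% in 12 of 12 samples, as were 7.26% of all genes, at 0.56 against 2.1 CPM. LGALS9 was lower in 11 of 12 (4.87 against 8.71 CPM), TNFRSF14 in 9 with 1 higher (5.24 against 10.1 CPM), and IDO1 in 8 with none higher. In SCC1 PBS replicate 1, for example, VTCN1 was at 0.66 CPM in the most cycling cells and 3.74 CPM in the least. The cells of the top 25% also held more UMIs before thinning, with sample means of 34077 to 70646 against 25127 to 57549, and the part of cell size in these differences was not tested. The cell cycle list itself was lower with cetuximab, with 13 of its 16 genes called lower across lines with the block, and 2 without it. Of all genes, 11.6% and 3.67% were called in these fits.

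By EGFR and MAPK output score, which sums genes such as DUSP4, EREG and FOSL1, CD274 and NT5E were higher in the top 25% in 12 of 12 samples each, as were 1.23% of all genes. The mean levels were 2.54 against 1.12 CPM for CD274, or 2.26 times, and 24.8 against 17.9 CPM for NT5E, or 1.39 times. In SCC1 PBS replicate 1 CD274 was at 4.4 CPM in the top 25% and 0.88 in the bottom. Some of the CD274 directions rest on few UMIs here too. Over all thinned cells, CD274 was found in 12 of 2592 in SCC6 cetuximab replicate 1. In SCC25 PBS it was found in 15 of 2188 and 17 of 2503. PDCD1LG2, CD276 and PVR were higher in 10 of 12 samples, with ratios of 1.30, 1.10 and 1.24. Both directions were seen for LGALS9 (5 higher) and TNFRSF14 (4 higher). In SCC6 6 of the 16 genes of this list fell with cetuximab (edgeR, with 3.81% of all genes called). Among them was AREG, an EGFR ligand (log2 fold change -4.53 ± 0.78, edgeR adjusted p = 0.0162).

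**Figure D4:**
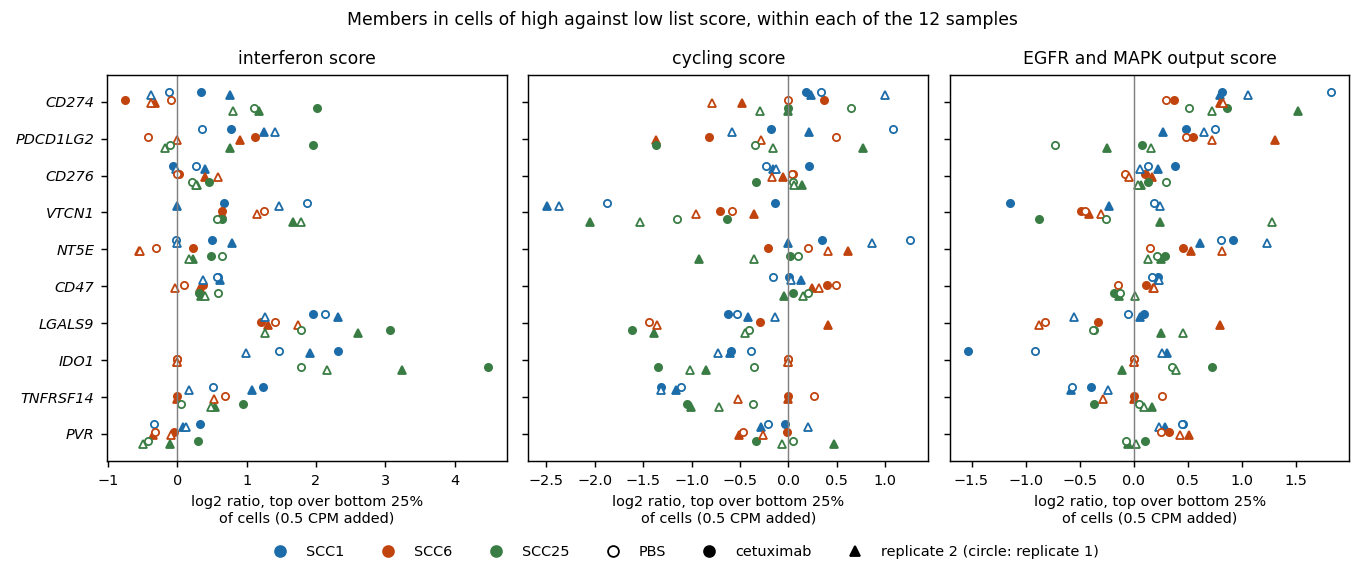
Log2 ratio of each member's CPM in the highest over the lowest 25% of thinned cells (x axis, 0.5 CPM added to both), ranked within each of the 12 samples by 3 list scores (panels); colours are lines, open marks PBS, filled marks cetuximab, circles replicate 1 and triangles replicate 2. LGALS9 lies right of 0 in all samples for interferon, VTCN1 left of 0 for cell cycle, and CD274 and NT5E right of 0 for EGFR and MAPK output.

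Other genes of the same pathways were counted by list, and list medians are of the log2 fold change, those of all genes being near 0 as given above. Counts with the block stand against 4.45% of all genes called in SCC1, 20.1% in SCC6 and 0.978% in SCC25. Of 11 tested genes for the interferon gamma route and PD-L1 handling, none was called by edgeR in any line, and with the block SOCS1, a feedback inhibitor of cytokine signalling, rose in SCC1 while 4 fell in SCC6. SOCS1 was at 8.55 and 5.90 CPM with PBS and 19.0 and 11.5 CPM with cetuximab in SCC1 (blocked log2 fold change 1.06 ± 0.22, edgeR adjusted p = 0.0382). IRF1, an interferon-induced transcription factor that acts on CD274, fell in SCC6 with the block, from 33.3 and 18.3 CPM to 13.0 and 9.80 CPM (-1.13 ± 0.17, edgeR adjusted p = 0.00433, and 0.0557 without the block). The list medians were 0.24, 0.02 and 0.28 in SCC1, SCC6 and SCC25.

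Among 12 tested other inhibitory ligands none passed without the block, and with it 3 rose and 1 fell in SCC1 and 1 rose and 4 fell in SCC6. The 3 that rose in SCC1 were CEACAM1, an inhibitory adhesion molecule (log2 fold change 2.3 ± 0.33, edgeR adjusted p = 0.0133), and the butyrophilins BTN3A3 (1.07 ± 0.23, adjusted p = 0.0402) and BTN3A1 (0.82 ± 0.19, adjusted p = 0.047). CEACAM1 fell in SCC6 (-1.23 ± 0.26, edgeR adjusted p = 0.0147). BTN3A3 was at 6.09 and 6.10 CPM with PBS and 14.0 and 11.7 CPM with cetuximab in SCC1, and BTN3A1 at 9.45 and 7.55 against 17.5 and 12.7 CPM. HLA-E, the ligand of the inhibitory NK receptor NKG2A, was at 179 and 178 CPM against 361 and 276 CPM in SCC1, with no call (edgeR adjusted p = 0.0688 with the block). LGALS3, which encodes galectin-3, was at 522 and 398 against 194 and 253 CPM in SCC6 and fell with the block (log2 fold change -1.04 ± 0.20, edgeR adjusted p = 0.0101, and 0.0962 without it), while LGALS1 rose there (0.65 ± 0.14, adjusted p = 0.0182, and 0.17 without it). LGALS1 was the gene that fell in SCC1 with the block (-0.80 ± 0.15, edgeR adjusted p = 0.0246). VSIR, encoding the checkpoint protein VISTA, fell in SCC6 with the block as well (-1.04 ± 0.25, edgeR adjusted p = 0.0221). The medians were 0.56, -0.12 and 0.33.

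Of 13 nectins and NK cell ligands, 1 fell across lines, RAET1E, a ligand of the activating receptor NKG2D (log2 fold change -1.41 ± 0.35, edgeR adjusted p = 0.0495). NECTIN2, which like PVR binds TIGIT, was at 24.7 and 33.8 CPM against 42.8 and 47.1 CPM in SCC1 and at 17.8 and 31.1 CPM against 36.5 and 44 CPM in SCC25, with no call in either line. With the block 1 of the 13 rose in SCC1, RAET1L, another NKG2D ligand (2.15 ± 0.44, edgeR adjusted p = 0.0335). In SCC6 2 fell with it, RAET1E (-2.46 ± 0.35, edgeR adjusted p = 0.00358) and NECTIN1 (-0.61 ± 0.14, adjusted p = 0.0189). Across lines NECTIN2 rose and RAET1E and RAET1G fell with the block (0.53 ± 0.13, -1.41 ± 0.27 and -0.61 ± 0.13, edgeR adjusted p = 0.0344, 0.0178 and 0.022). The medians were -0.15, -0.26 and 0.11. Of 10 costimulatory ligands none was called in any line with or without the block, and TNFSF4, the OX40 ligand, rose across lines with it (1.25 ± 0.27, edgeR adjusted p = 0.0261). Their medians were 0.30, -0.33 and 0.84. CD70 was at 72.1 and 110 CPM against 38.4 and 41.5 CPM in SCC1, and ICAM1, an adhesion molecule for lymphocytes, at 4.32 and 7.02 CPM against 34.8 and 8.54 CPM in SCC25.

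Of 9 genes for adenosine and tryptophan metabolism, 1 fell in SCC6 and 4 with the block, NT5E not being on that list. ADORA2B, an adenosine receptor, was at 25.2 and 29.8 CPM with PBS and 3.55 and 8.57 CPM with cetuximab (log2 fold change -2.18 ± 0.37, edgeR adjusted p = 0.0149). KYNU, which acts downstream of IDO1 in tryptophan breakdown, was at 50.6 and 79.6 CPM against 7.12 and 16.2 CPM (-2.56 ± 0.51 with the block, edgeR adjusted p = 0.0123, and 0.0643 without it). In SCC1 ADORA2B fell with the block (-1.09 ± 0.21, edgeR adjusted p = 0.0302). The medians were -0.27, -0.85 and -0.11.

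The next list held 7 genes that bear on phagocytosis or complement, not all of them shields. Of these, CD24, which signals to macrophages through Siglec-10, rose in SCC1 from 1.13 and 1.14 CPM to 8.61 and 7.50 CPM (log2 fold change 2.82 ± 0.27, edgeR adjusted p = 0.00761). In SCC6 it was at 466 and 296 CPM against 831 and 585 CPM and rose with the block (0.91 ± 0.11, edgeR adjusted p = 0.00224, and 0.0752 without it). CD55, which limits complement, rose in SCC1 with the block (1.01 ± 0.21, edgeR adjusted p = 0.0391), and LRP1, a receptor for calreticulin, rose with it in SCC1 and SCC6 (0.66 ± 0.14 and 1.25 ± 0.14, adjusted p = 0.0402 and 0.00167). Of 6 genes for death receptors and resistance to killing, TNFRSF10A, a receptor of TRAIL, fell in SCC6 from 6.22 and 4.31 CPM to 1.67 and 2.27 CPM (-1.41 ± 0.32, edgeR adjusted p = 0.0411), and FAS, the receptor of FAS ligand, fell there with the block (-1.07 ± 0.20, adjusted p = 0.00926). The medians of the 2 lists in SCC1, SCC6 and SCC25 were 0.37, 0.28 and 0.25, and 0.14, -0.62 and 0.40.

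For 3 members, genes of at least 10 CPM whose log2 CPM moved most alike over the 12 samples, after each line's mean was removed, were named. CD274 was closest to SLC25A28 (Pearson r = 0.946), RCHY1 (0.936) and TMEM267 (0.926). NT5E was closest to GTF2F2 (0.946), BCAR1 (0.943) and PNO1 (0.941), and CD47 to GABARAPL2 (0.97), STX4 (0.933) and TMEM41A (0.924). The points share libraries and only 4 samples per line, and the best of many genes is high by selection, so these are descriptions without a test.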

How the data were processed

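Gene counts per cell were made by the authors with Cell Ranger against GRCh38, per the labels, and deposited as raw UMI counts for each of the 3 lines, with a table assigning every cell to its sample. Cells were pre-processed with Monocle 3 per the methods, but no cell filter thresholds and no doublet step are given in the sources used here, and all 23914 deposited cells were kept. UMIs were summed per sample, 24 repeated symbols being added, and fitted over all 6 groups with edgeR 4.0.16 (TMM, filterByExpr, quasi-likelihood F-test), with Benjamini-Hochberg adjustment over 17897 genes and calls at an adjusted p under 0.05. Standard errors are the absolute log2 fold change over the square root of F. Depth was 57057402 to 112170073 UMIs per sample. Shares came from cells thinned to 15000 UMIs, with exact binomial intervals (scipy 1.17.1). The reported fit held no term for the replicate. In the fits with a block, samples of equal replicate number, as labelled, were taken as paired. The reason was that the deviations of replicate 1 from the group means correlated between treatments (r = 0.377 in SCC1, 0.349 in SCC6, 0.598 in SCC25). Scripts were tested on simulated data. DESeq2 1.42.0, another scaling, no filter, other cell filters, each line alone and each sample left out were tried. The members, lists and tests were chosen with earlier results of these data known. All members were described. From each other list, up to 3 genes per line were eligible for naming by size of change, at a mean of at least 5 CPM and without overlap of groups, along with any gene called. Sequences and positions are RefSeq's on GRCh38.p14.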

Additional observations from a re-analysis of the deposited data

Results flagged for a closer look

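NT5E is listed because every sample moved in opposite directions in different lines. Both SCC25 cetuximab samples were above both PBS samples (log2 fold change 0.85), whereas both cetuximab samples were below both PBS samples in SCC6 (-1.14) and, by little, in SCC1 (-0.16). The edgeR interaction of line and treatment gave an adjusted p of 0.501, and 0.0586 with the replicate block, so the difference between lines did not pass.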

How the results depend on the processing

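Members called within SCC1 numbered 3 with DESeq2 (IDO1, PDCD1LG2 and LGALS9), 3 without the low-count filter and 2 with the replicate block, against none in the reported fit. In SCC6 they numbered 2, 2 and 3, and 2 with a block shared by all lines, and in SCC25 1, 2 and 1. Across lines there were 2 with DESeq2, 2 without the filter and 2 with the shared block, and for the interaction 1 with DESeq2 and 1 without the filter, against 1 and none. Without drug, DESeq2 called 6 members for SCC6 against SCC1, 5 for SCC25 against SCC1 and 6 for SCC25 against SCC6. The shared block called 6, 5 and 5, against 5, 3 and 4 in the reported fit. It added LGALS9 to the first comparison and CD276 to the last. Without the low-count filter the counts were 6, 3 and 6, and in SCC25 against SCC1 IDO1 was added and CD276 was lost. Leaving out 1 sample at a time gave 0 members within SCC1 and SCC25, 0 to 1 within SCC6 (NT5E, without SCC6 cetuximab replicate 2), 1 to 2 across lines (2 without SCC25 PBS replicate 2, IDO1 being added), 0 for the interaction, 3 to 6 for SCC6 against SCC1, 1 to 4 for SCC25 against SCC1 and 3 to 5 for SCC25 against SCC6. For cetuximab against PBS, the replicate block changed no member's call beyond those given above. Without the low-count filter 243, 1233 and 128 genes were called in SCC1, SCC6 and SCC25, with the block 797, 3589 and 175, and with DESeq2 274, 1671 and 101, against 3, 682 and 0. Fitted alone, SCC6 gave 265 and the other lines 0.

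The sign turned only for differences that were not called, and the cause was not tested. With cetuximab, VTCN1 in SCC6 became -0.041 with the shared block, -0.13 without the 5% of cells with the most UMIs, -0.21 in thinned cells and -0.27 to 0.36 with 1 sample left out, and in SCC25 -0.042 with the replicate block and -2.55 to 2.21. Leaving out 1 sample gave -0.040 to 0.61 for CD47 in SCC1, -0.67 to 0.010 for CD47 in SCC6, -0.62 to 0.026 for PVR in SCC6 and -0.36 to 0.12 for NT5E across lines. Between untreated SCC6 and SCC1, VTCN1 became -0.17 in thinned cells and -0.18 to 0.55, and NT5E -0.035 to 0.090. Between SCC25 and SCC1, VTCN1 became -1.84 to 1.12 and CD47 -0.24 to 0.34. Between SCC25 and SCC6, VTCN1 became -0.13 with the shared block and -2.01 to 0.95, and LGALS9 -0.35 to 1.80. Few UMIs limit CD274, PDCD1LG2, VTCN1 and IDO1, and 2 samples a group limit every test.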

Other observations

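PDCD1LG2, added to the named genes of like pattern after its values were seen, moved most like PTGS2, the gene of the prostaglandin enzyme COX-2, over the 12 samples (Pearson r = 0.963 of log2 CPM with each line's mean removed). TNFAIP1 (0.961) and B4GALT7 (0.957) were about as close. No p is given, since these genes are the best of many.

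Cells positive for both LGALS9 and IDO1 exceeded the number that independence would give in SCC25 cetuximab replicate 1, with 30 cells against 10.0 expected of 1920, and in SCC1 cetuximab replicate 1, with 19 against 12.3 of 938. CD274 and LGALS9 did not show this in the same samples, with 5 cells against 5.53 expected and 31 against 30.5.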
